A study of Drosophila melanogaster with 2 samples.

Results

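The 8 genes described here (kirre, CHES-1-like, shn, crp, Tlk, dnc, CG1677 and lncRNA:CR44357) are long transcription units that each held 4 or more NC2alpha binding summits inside the gene. They were chosen by that count, taken from the authors' reproducible ("optimal") peak list on the Release 6 fly genome (dm6), so the counts themselves describe the choice and are not a finding. Of 18164 annotated genes on the 6 chromosomes that carried peaks, 27 (0.149%) met the same count, and the 8 are a selection from these 27. Together they held 44 distinct summits of the 2174 in the list. CG1677 and lncRNA:CR44357 overlap and share 9 summits, so the counts of the single genes add up to 53. The genes were long by the annotation: 855 genes, or 4.71% of all, reached the 24175 bp of crp, the shortest of the 8.

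The study had 1 group, whole embryos of mixed sex collected between 0 and 24 hours of age, from a fly line that stably expresses NC2alpha with GFP at its C terminus. Chromatin was sheared to 200 to 800 bp and precipitated with an antibody against GFP in 2 biological replicates, and peaks were called against a control alignment. Each peak carries a signal value set by the authors. Its scale is not stated in the labels or headers, so it serves only to rank and describe peaks within a list. No stage, tissue or untagged line was compared, binding in a few cells and in many cells of the embryo cannot be told apart, and expression of the genes was not measured.

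NC2 (negative cofactor 2, also called Dr1/DRAP1) is a heterodimer of histone-fold proteins in which NC2alpha pairs with NC2beta. It binds TATA-binding protein on promoter DNA, where it blocks the entry of TFIIA and TFIIB, and it is known both to repress and to activate transcription depending on the core promoter. In flies it was described as a factor that discriminates between promoters with a TATA box and those with a downstream promoter element. The listed genes have from 1 annotated start site (crp and lncRNA:CR44357) to 9 (dnc), and several hold nested genes. Most summits are therefore given below with their distance to a start site.

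For 7 of the 8 genes, at 6 loci, the strongest summit outside any UTR is shown as a bound position of high signal in that gene, and none is shown for shn. For dnc this is the second strongest summit, since its strongest lies in a 5' UTR. Each is given as the + strand of the Release 6 (dm6) reference across the peak or its central part. Capitals mark the 21 bases centred on the summit. The positions are chrX:3742082-3742376 for Tlk, chrX:7336954-7337176 for CG1677 and lncRNA:CR44357, chrX:3097119-3097311 for kirre, chrX:3255593-3255793 for dnc, chrX:7700342-7700505 for CHES-1-like and chr2L:16279796-16279996 for crp, and all 6 stretches were intronic.
Tlk: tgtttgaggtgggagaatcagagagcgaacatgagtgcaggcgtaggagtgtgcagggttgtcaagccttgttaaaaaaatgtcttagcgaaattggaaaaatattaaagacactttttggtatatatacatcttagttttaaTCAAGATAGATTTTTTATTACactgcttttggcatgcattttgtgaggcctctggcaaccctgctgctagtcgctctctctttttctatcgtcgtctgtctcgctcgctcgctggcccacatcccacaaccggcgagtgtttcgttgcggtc
CG1677 and lncRNA:CR44357: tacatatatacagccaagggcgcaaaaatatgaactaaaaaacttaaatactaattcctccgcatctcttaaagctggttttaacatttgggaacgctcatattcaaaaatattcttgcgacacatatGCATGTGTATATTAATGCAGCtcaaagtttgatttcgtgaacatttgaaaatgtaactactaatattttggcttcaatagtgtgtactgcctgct
kirre: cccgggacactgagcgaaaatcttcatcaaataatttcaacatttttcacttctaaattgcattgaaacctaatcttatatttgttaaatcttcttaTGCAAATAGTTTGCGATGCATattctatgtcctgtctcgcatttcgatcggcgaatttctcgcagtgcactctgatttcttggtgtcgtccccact
dnc: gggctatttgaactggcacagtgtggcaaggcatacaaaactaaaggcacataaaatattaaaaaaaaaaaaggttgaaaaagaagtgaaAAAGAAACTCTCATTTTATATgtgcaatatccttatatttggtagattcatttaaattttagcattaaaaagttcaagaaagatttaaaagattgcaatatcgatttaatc
CHES-1-like: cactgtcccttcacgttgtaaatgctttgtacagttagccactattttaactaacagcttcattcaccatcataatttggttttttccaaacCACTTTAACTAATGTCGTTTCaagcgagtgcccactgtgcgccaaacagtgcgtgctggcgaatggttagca
crp: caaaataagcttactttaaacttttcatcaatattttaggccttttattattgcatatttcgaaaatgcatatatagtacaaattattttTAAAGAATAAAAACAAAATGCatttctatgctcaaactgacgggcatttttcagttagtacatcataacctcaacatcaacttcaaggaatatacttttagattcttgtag
Of these 6 sequences, that of Tlk held a match to one of the 5 short motifs searched, TCTCTC (the reverse complement of the GAGA repeat GAGAGA), which begins at base 218 of the stretch shown. The GC content of the stretches ran from 26.4% at crp to 44.4% at Tlk.

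**Figure D1:**
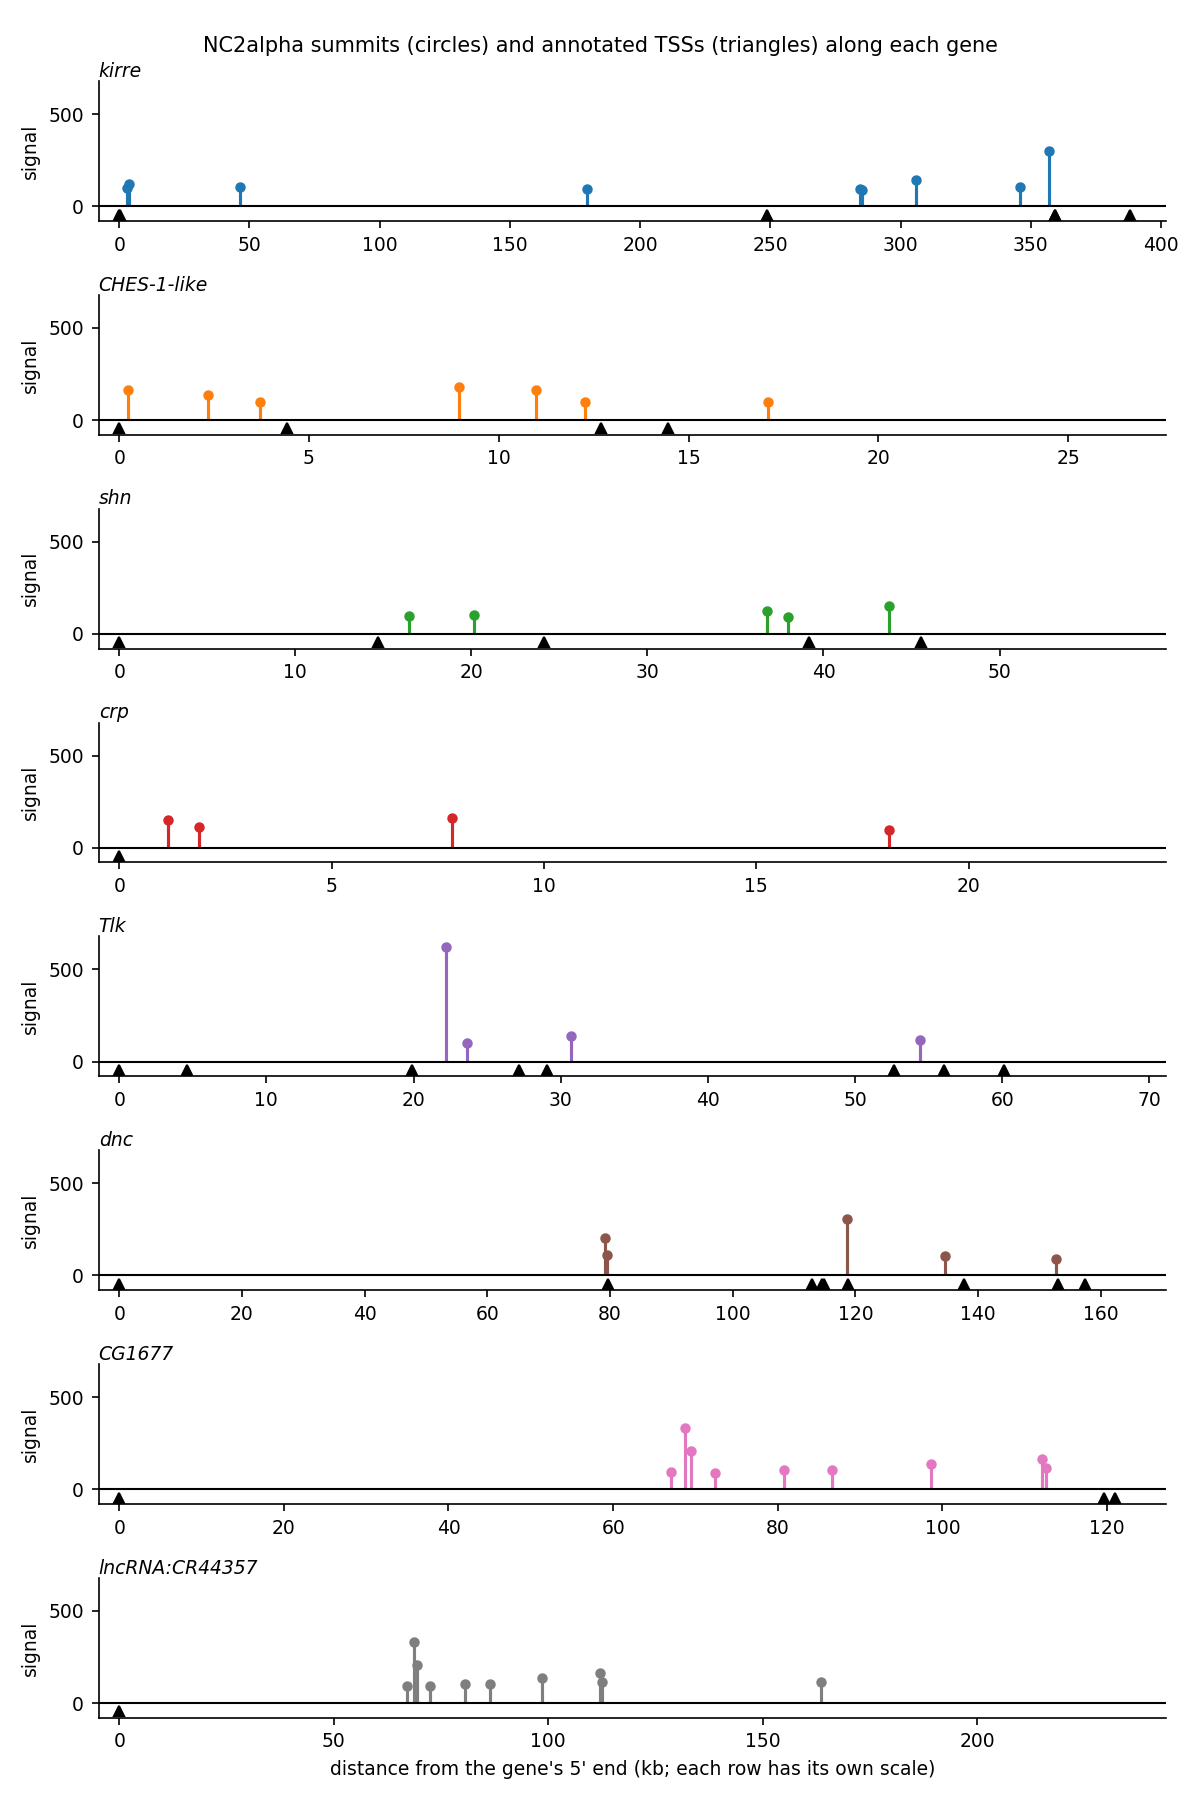
Signal of each summit of the optimal list (circles, authors' value) against its distance in kb from the 5' end of the gene, with annotated transcription start sites as triangles. Tlk carries the highest summit, at 621.19, and most circles stand apart from the triangles.

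Among the 8 genes, kirre and dnc are the longest that code for proteins. kirre (FBgn0028369; X, 2740384 to 3134532, + strand, 394 kb) encodes an immunoglobulin-family cell adhesion protein of muscle founder cells that attracts myoblasts for fusion. It held 9 optimal summits, or 0.0228 per kb. The strongest had a signal of 298.65, with 161.06 in replicate 1 and 142.75 in replicate 2, and ranked 128 of 2174. It lay 2324 bp upstream of a pair of kirre start sites near the 3' part of the gene, 357 kb from the 5' end.

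The other 8 kirre summits were weaker, with signals of 85.74 to 140.51. Summits 1 and 2, 2.9 and 3.85 kb from the 5' end, had signals of 98.21 and 118.21. Their replicate values were 50.68 and 47.23 for the first (replicates 1 and 2) and 75.3 and 38.98 for the second. Both lay closest to start sites of Syx4, a syntaxin of the plasma membrane transcribed from the other strand, at 329 and 158 bp upstream. Summit 3, at 46.4 kb, had a signal of 107.24, with 54.74 in replicate 1 and 51.31 in replicate 2, and lay nearest to CG32795, 2572 bp downstream of its start. Summit 4, at 180 kb, had a signal of 92.52 (41.63 in replicate 1, 48.42 in replicate 2) and lay 136 bp upstream of a start site of the nested gene CG3588. The next pair, at 284 and 285 kb, stood 963 bp apart, 35678 and 36641 bp downstream of the third kirre start site, with signals of 92.66 and 85.74, the second being the weakest of all 44. The first of that pair had 67.13 in replicate 1 and 29.81 in replicate 2, and the second had 45.58 in replicate 1 and 41.41 in replicate 2. Summit 7, at 306 kb, reached 140.51 (93.38 in replicate 1, 47.47 in replicate 2), and summit 8, 13503 bp upstream of the nearest kirre start site, reached 103.21 (55.5 in replicate 1, 50.49 in replicate 2). Thus no kirre summit lay within 500 bp of any of the 6 annotated start sites of kirre itself, and 3 of 9 lay that close to a start site of another gene. The kirre body holds 22 other genes in full, 21 of them protein-coding.

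CHES-1-like (FBgn0029504; X, 7682338 to 7709385, - strand, 27.0 kb) encodes a forkhead-domain transcription factor. Its 7 summits gave the highest density of the 8 genes, 0.259 per kb, which was 11.3 times that of kirre. From the 5' end, the first summit was 236 bp downstream of the first start site, in the 5' UTR, with a signal of 163.45 (98.35 in replicate 1, 65.15 in replicate 2). The second, at 2.33 kb, had a signal of 138.43 (71.75 in replicate 1, 61.78 in replicate 2) and lay 720 bp upstream of the nested antisense transcript lncRNA:CR43287. At 3.71 kb the third had a signal of 100.64, with 57.01 in replicate 1 and 50.16 in replicate 2, and stood 708 bp upstream of the second start site. The summits were thus spread over the first part of the gene, none farther than 17.1 kb from its 5' end. The fourth, at 8.94 kb, stood 3740 bp upstream of the third start site and was the strongest at 181.96 (91.51 in replicate 1, 89.09 in replicate 2). The fifth, 10978 bp from the 5' end and 1703 bp upstream of the third start site, had a signal of 164.24 (87.57 in replicate 1, 73.74 in replicate 2). The sixth, 419 bp upstream of the third start site, had 97.36 (61.69 in replicate 1, 42.26 in replicate 2), and the last, 2638 bp downstream of the fourth start site, had 97.93 (48.83 in replicate 1, 51.83 in replicate 2). The signals of the 7 stayed within a narrow span, and none ranked above 446 of 2174.

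shn (schnurri, FBgn0003396; 2R, 11159086 to 11217394, + strand, 58.3 kb) encodes a large zinc-finger protein that works with the Smad proteins Mad and Medea to repress targets of the Dpp (BMP) pathway, brk among them. All 5 of its summits were intronic and none came within 1000 bp of a start site. The strongest, at 43.7 kb from the 5' end and 1811 bp upstream of the fifth start site, had a signal of 150.71, with 95.33 in replicate 1 and 50.27 in replicate 2. The first, at 16.5 kb and 1764 bp downstream of the second start site, had a signal of 96.58 but unequal replicates, 67.25 in replicate 1 and 21.97 in replicate 2. Of the remaining 3, the summit at 20.1 kb, 4013 bp upstream of the third start site, had a signal of 104.82 (57.03 in replicate 1, 48.57 in replicate 2). Those at 36.8 and 38.0 kb, 2423 and 1199 bp upstream of the fourth start site, had signals of 126.22 (63.18 in replicate 1, 57.54 in replicate 2) and 93.67 (35.18 in replicate 1, 63.25 in replicate 2). The second of these was the one shn summit that was higher in replicate 2.

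crp (cropped, FBgn0001994; 2L, 16263556 to 16287730, - strand, 24.2 kb) encodes a basic helix-loop-helix leucine zipper factor related to vertebrate AP4, known for its part in the terminal branching of the trachea. It stood at the threshold with 4 summits. The strongest, 7.83 kb from the 5' end, had a signal of 160.29 (95.32 in replicate 1, 64.65 in replicate 2). A pair at 1.14 and 1.88 kb, 735 bp apart, had signals of 152.53 (78.01 in replicate 1, 70.97 in replicate 2) and 114.24 (49.07 in replicate 1, 62.02 in replicate 2). The last, at 18.1 kb, had a signal of 95.9, made of 76.7 in replicate 1 and 12.43 in replicate 2. In the replicate 2 list that peak ranked 28841 of 29999 on the 6 chromosomes, the widest gap between replicates of any of the 44. One further optimal peak, with a signal of 166.55, lay 49 bp upstream of the single crp start site, just outside the gene body, and is not among the 44.

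Tlk (Tousled-like kinase, FBgn0283657; X, 3720007 to 3789770, + strand, 69.8 kb) encodes a nuclear kinase that phosphorylates the histone chaperone Asf1. It had 4 summits and the strongest peak of all 8 genes. That peak, shown above, had a signal of 621.19 and ranked 22 of 2174, and it was strong in both replicates, with 342.98 in replicate 1 (rank 22) and 277.27 in replicate 2 (rank 21). It lay in an intron, 22.2 kb from the 5' end and 2338 bp downstream of the third of 8 start sites. The other 3 Tlk summits were much weaker. One followed 1377 bp further on with a signal of 100.31 (61.44 in replicate 1, 59.27 in replicate 2). Another, 1616 bp downstream of the fifth start site, had 139.82 (80.73 in replicate 1, 53.51 in replicate 2), and the last, 1623 bp upstream of the seventh, had 119.9 (59.38 in replicate 1, 63.1 in replicate 2). No Tlk summit was within 500 bp of a start site.

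dnc (dunce, FBgn0000479; X, 3176440 to 3343767, + strand, 167 kb) encodes the cAMP phosphodiesterase known for its role in learning and memory. It was the gene whose summits sat at its own start sites: 4 of 5 lay within 500 bp upstream of one of its 9 annotated starts. The strongest, in a 5' UTR 295 bp upstream of the sixth start site, had a signal of 307.71 (161.08 in replicate 1, 140.01 in replicate 2) and ranked 118. A pair 375 and 173 bp upstream of the second start site, from which 6 transcripts begin, had signals of 202.3 and 113.08. The peaks of this pair overlap, their summits being 202 bp apart, and the strongest overlapping replicate peak is the same for both, with 111.23 in replicate 1 and 88.92 in replicate 2. By the nearest replicate summit the weaker of the pair had 65.07 in replicate 1 and 13.04 in replicate 2. The fifth summit, 340 bp upstream of the eighth start site, had a signal of 87.96 (43.99 in replicate 1, 42.88 in replicate 2). The remaining one, 3142 bp upstream of the seventh start site, had 105.48 (60.86 in replicate 1, 43.99 in replicate 2). The most upstream dnc start site, which serves 4 transcripts, had no optimal summit inside 500 bp but had a weaker pooled peak 50 bp upstream, with a signal of 39.98.

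CG1677 (FBgn0029941; X, 7281089 to 7405797, - strand, 125 kb) and the long non-coding gene lncRNA:CR44357 (FBgn0265457; X, 7166451 to 7405797, - strand, 239 kb) begin at the same annotated start site, and all 9 summits of CG1677 were also in lncRNA:CR44357. That start site was far from them: the nearest optimal summit lay 67039 bp downstream. The second CG1677 start site, used by 2 transcripts, was nearer, with an optimal summit 7052 bp upstream. The closest start sites belonged instead to nested genes, of which 13 protein-coding ones lie wholly inside CG1677. The strongest summit, 260 bp upstream of CBP (a calcium-binding protein gene), had a signal of 334.38 and ranked 93, with 172.93 in replicate 1 and 156.24 in replicate 2. The second strongest, 1017 bp upstream of CBP, had 205.22 (115.96 in replicate 1, 88.36 in replicate 2), and one more, 1052 bp downstream of a CBP start site, had 93.46 (49.21 in replicate 1, 43.23 in replicate 2). CBP thus had 3 summits near its start sites.

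The other 6 shared summits lay by other nested genes. One was 784 bp upstream of brk, which encodes the repressor that opposes Dpp signalling, with a signal of 134.64 (65.58 in replicate 1, 70.18 in replicate 2). One lay 866 bp downstream of the start of Dok, a docking protein gene, with 102.36 (45.0 in replicate 1, 55.03 in replicate 2). A summit 1201 bp upstream of CG42780 had 90.5 (56.72 in replicate 1, 30.26 in replicate 2). In Atg5, an autophagy gene, a summit 4519 bp downstream of the start had 102.65 (41.53 in replicate 1, 58.97 in replicate 2). A pair 506 bp apart, upstream of unc-119 by 2455 and 1949 bp, had signals of 163.4 (72.56 in replicate 1, 98.97 in replicate 2) and 116.38 (55.77 in replicate 1, 59.5 in replicate 2). These last 3, like those at brk and Dok, were higher in replicate 2. The tenth summit of lncRNA:CR44357, in no other listed gene, had 113.55 (61.13 in replicate 1, 54.86 in replicate 2) and lay 164 kb from the 5' end.

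The count of 4 set the limits of the choice. At the threshold 16 genes held exactly 4 summits, crp and Tlk among them, and 61 genes held exactly 3. Of those with 3, the highest summed signals were 1456.6 in px, 988.4 in Lrch, 876.8 in larp, 804.2 in Rtnl1 and 766.7 in CG9837. The 19 genes that met the count but are not among the 8 were Raf and ush with 8 summits, Hr4 and Eip75B with 7, RapGAP1 with 6, and HmgZ, Kdm2, ph-p, HmgD, lncRNA:CR43334, msn, apt, tara, brat, InR, cic, sbb, Dys and SKIP with 4. Taken by the largest number of summits and then the highest density, the first 3 of these were Raf (a kinase of the MAP kinase cascade), at 0.165 summits per kb, ush (a cofactor of GATA factors), at 0.124, and Hr4 (a nuclear receptor), at 0.106. These densities lie between those of CHES-1-like, at 0.259, and shn, at 0.0858. Eip75B, at 0.0615, and RapGAP1, at 0.0739, were nearer to the median density of the 8 genes, 0.0648.

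Most genes of this length held few summits. Among the 855 genes at least as long as crp, 22 (2.57%) held 4 or more, and 559 of the 847 that are not among the 8 held none. The 4 genes longer than kirre held no optimal summit. They also held 0 or 1 summit each in the pooled list of 30000 peaks, where kirre held 84. They thus had almost no called peaks of any strength, against 0.208 pooled summits per kb outside the optimal list over the 6 chromosomes. The lists hold no read counts, so lack of binding there cannot be told from sequence where peaks could not be called. Per kb, the 8 genes had a median of 0.0648 optimal summits, against 0.0 in the other 847 long genes and 0.0162 over the 6 chromosomes. That difference follows from the choice of genes by their count, and is given only as a description. The wide spread among the 8, 0.0228 in kirre to 0.259 in CHES-1-like, came with lengths from 24.2 to 394 kb.

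**Figure D2:**
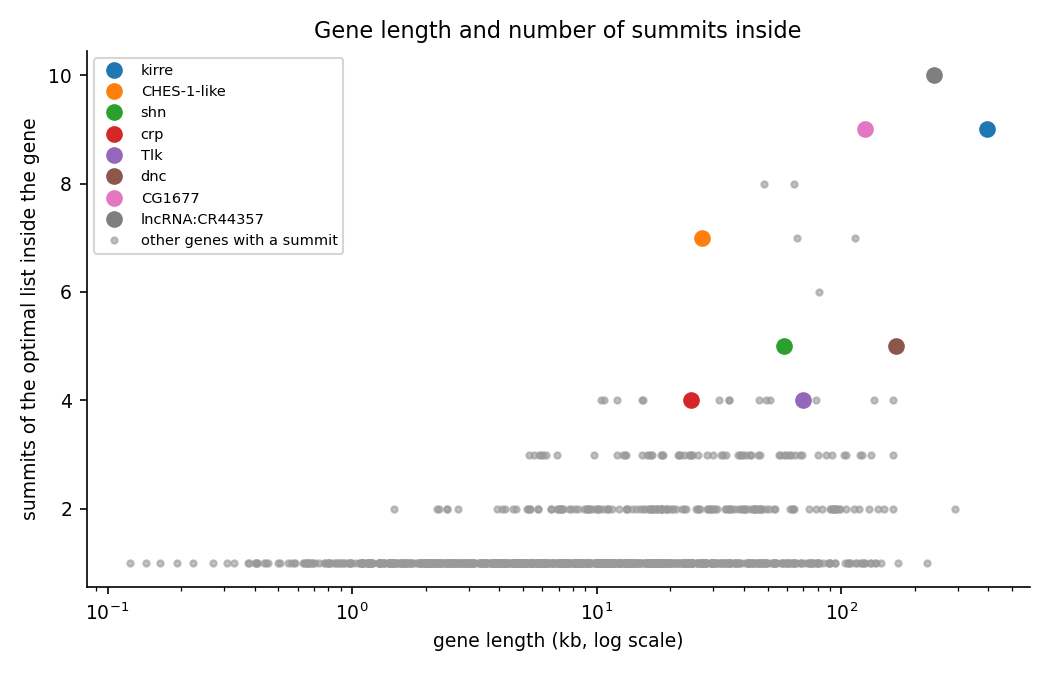
Number of optimal summits inside each gene against gene length (kb, log scale), for the 8 genes (large coloured points) and every other gene with at least 1 summit (small grey points). The points at 4 or more include the 8 genes and the 19 that met the same count, and most long genes carried fewer.

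Below the reproducibility threshold the same genes carried many more weak peaks. The pooled list of 30000 peaks, of which the optimal list is the strongest 2174, placed 84 summits in kirre, 64 in lncRNA:CR44357, 39 in CG1677, 32 in Tlk, 31 in shn, 28 in dnc, 22 in CHES-1-like and 14 in crp. Leaving out the optimal ones, the 8 genes had a median of 0.321 per kb (range 0.137 in dnc to 0.555 in CHES-1-like), against 0.17 in the other long genes and 0.208 over the 6 chromosomes. CHES-1-like was exceeded by 20 of the 847 other long genes, shn by 76, crp by 98 and Tlk by 108. CG1677 was exceeded by 296, lncRNA:CR44357 by 332, kirre by 388 and dnc by 473. The densities of CG1677, lncRNA:CR44357, kirre and dnc lay between the quartiles of the other long genes, 0.0645 and 0.299 per kb, and so were ordinary.

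The 8 genes carry 36 distinct start sites. Of these, 6 (16.7%, 6.37 to 32.8) had an optimal summit within 500 bp, counting the crp peak just outside the gene, against 8.42% of 2006 start sites of the other long genes and 8.28% of 23581 in all. A pooled summit lay that close to 23 (63.9%, 46.2 to 79.2), against 50.9% in the other long genes and 45.5% in all. Both intervals of the 8 genes include the share of the other long genes. The optimal summits inside the genes are those that chose them, and the pooled list holds them too, so both shares are only descriptions. All 5 shn start sites had a pooled summit within 500 bp but none an optimal one, and their nearest pooled peaks had signals of 25.23 to 55.55, under the weakest optimal signal of 81.95. For Tlk the numbers were 5 of 8 start sites with a pooled summit and 0 with an optimal one. In dnc they were 6 of 9 and 3 of 9, and in CHES-1-like 4 of 4 and 2 of 4. The 6 kirre start sites had 1 with a pooled summit, the 3 of CG1677 had 1, and the one of lncRNA:CR44357, the same position as the first of CG1677, had none.

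Set beside the whole list, the 44 summits were far from start sites, as were those in the other long genes. Within 500 bp of any annotated start site lay 10 of 44 (22.7%, exact 95% interval 11.5 to 37.8), against 25.8% (120) of the 465 summits in the other long genes and 54.8% of all 2174 (52.7 to 56.9). The median distance was 1733.5 bp for the 44, 2017 bp in the other long genes and 351.5 bp over the whole list. The interval of the 8 genes includes the share of the other long genes and lies wholly below that of all summits. By the choice the 44 lie inside long genes, whereas 37.9% of all 2174 were intergenic, so the other long genes are the closer comparison. Only 6 of the 44 were within 500 bp of a start site of the gene they were chosen for, 4 in dnc and 2 in CHES-1-like, and the other 4 of the 10 belonged to Syx4, CG3588 and CBP. Of the 10, 9 were upstream of the start site, as were 75.3% of the 1192 such summits in the whole list. The intervals cover counting error only, and summits of one gene are not independent.

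None of the 44 summits came within 100 bp of a start site, and the closest was 136 bp away. A count of 0 of 44 allows a share of up to 6.82%, or 8.04% by the exact interval. Both limits lie below the share in the other long genes, 8.6%, but inside its interval (6.22 to 11.5). The intervals overlap and summits of one gene are not independent, so a difference from the other long genes is neither shown nor excluded here. Over all summits the share was 27.0% (25.1 to 28.9). The crp peak 49 bp upstream of its start site lies outside the gene body and was not counted. By annotation, 42 of 44 (95.5%) were intronic and 2 were in a 5' UTR, against 88.4% intronic in the other long genes and 43.3% in all. The whole list includes intergenic summits, which the choice left out. In coding sequence lay 0 of 44, against 1.29% in the other long genes and 1.1% in all, shares that 44 summits could not tell from 0.

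**Figure D3:**
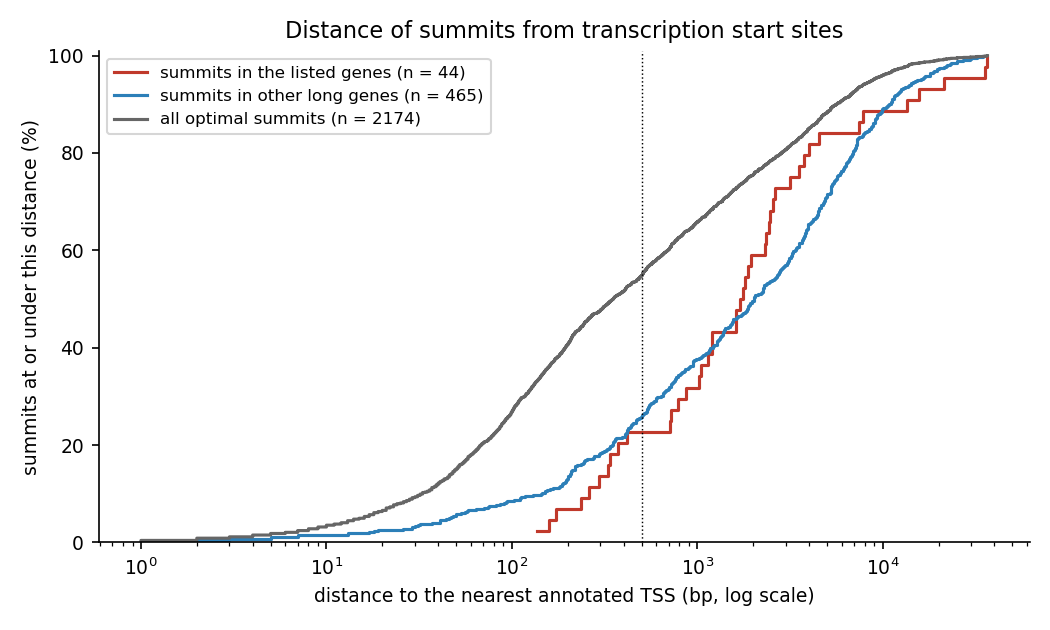
Cumulative share of summits (%) by distance to the nearest annotated start site (bp, log scale) for the 44 summits of the 8 genes, 465 summits in other long genes and all 2174, with 500 bp dotted. The curve of the 8 genes begins at 136 bp and runs near that of other long genes, below that of all summits over most of its length.

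The spacing of the summits rests on the values that chose the genes, and is given only as a description. Of the 44, 21 (47.7%) had another optimal summit within 2000 bp, and the median distance to the nearest other summit was 2065.5 bp. Over all 2174 summits, not chosen in this way, these values were 19.9% and 9363.5 bp. Of the 37 gaps between neighbours inside the genes, 11 were under 2000 bp and 6 under 1000 bp. The largest, 133233 bp, lay in kirre between summits 3 and 4.

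In strength the 44 were ordinary. Their median signal was 113.9, against 115.45 in the other long genes and 118 over the whole list, and 20 of 44 stood among its strongest 1087. Only 2, those of Tlk and CBP, were among the 100 strongest. The usual peak width was 404 bp, and the 6 narrower peaks of the 44 had a median signal of 303.18 against 106.36 for the rest, with a like difference over the whole list (296.8 against 110.83). The -log10 q value stood at its list maximum for 43 of 44 peaks, and so carried no ranking.

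Replicate values, read as the strongest overlapping peak in each replicate's own list, were available for all 44. They were within 2-fold of each other in 41 (93.2%, 81.3 to 98.6), against 75.9% in the other long genes (71.8 to 79.7) and 81.3% over the whole list (79.6 to 82.9). The median ratio of replicate 1 to replicate 2 was 1.13 in the 8 genes, 1.39 in other long genes and 1.31 over all peaks. Dividing replicate 1 by the median ratio over all peaks left 93.2% of the 44 within 2-fold, against 84.3% in the other long genes and 87.4% over the whole list, both inside the interval of the 44. Where each replicate peak had to share at least 50% of its length with the optimal peak and the reverse, 86.4% of the 44 were within 2-fold, with a peak that had no such partner counted as outside. The 3 exceptions, all higher in replicate 1, were the crp summit at 18.1 kb (6.17-fold), the first shn summit (3.06-fold) and the kirre summit at 284 kb (2.25-fold). With the nearest replicate summit in place of the strongest overlapping peak, the weaker dnc summit of the overlapping pair was also beyond 2-fold.

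The 3 exceptions also had the 3 highest GC contents of the 44 in the 201 bp around the summit, 48.3% at crp, 47.8% at shn and 47.3% at kirre. The fourth highest, 45.3%, was the tenth summit of lncRNA:CR44357, with a ratio of 1.11. Over the 2158 optimal peaks with both values, the median ratio of replicate 1 to replicate 2 was 1.17 in the 540 of lowest GC and 1.57 in the 540 of highest GC. The share more than 2-fold higher in replicate 1 was 7.59% in the lowest and 33.1% in the highest (Spearman's rho 0.26 between GC and ratio across peaks, which share the same 2 libraries). The part of GC content in these replicate differences was not tested. The 44 summits had a median GC of 34.6%, against 37.8% in the other long genes and 38.3% over all.

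**Figure D4:**
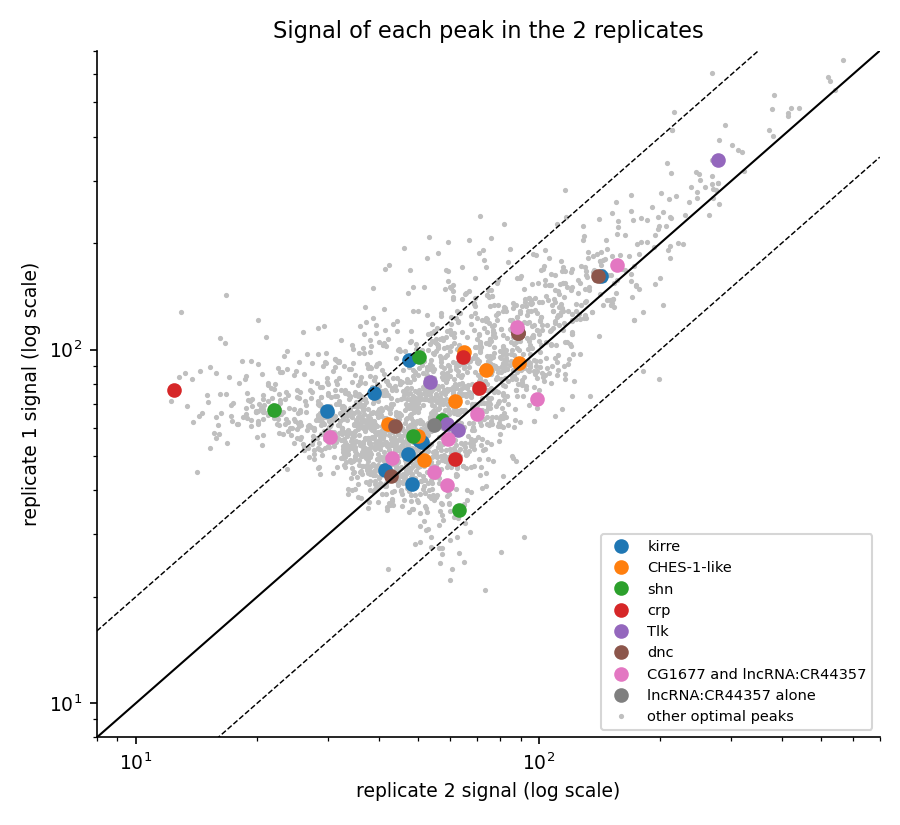
Signal of each optimal peak in replicate 1 (y) against replicate 2 (x), both on log scales, for the summits of the 8 genes (coloured) and the other optimal peaks (grey). The solid line is equality and the dashed lines 2-fold; 3 coloured points, of crp, shn and kirre, lie beyond 2-fold, all higher in replicate 1.

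When each replicate list was cut to its own strongest 2174 peaks, 7 of the 8 genes kept 4 or more summits in each. The optimal list that chose the genes was made from both replicates. These counts therefore follow in part from the choice and are only a description. Over all genes, 38 held 4 or more summits in the replicate 1 list and 29 in the replicate 2 list. Replicate 1 gave 9 in kirre, 6 in CHES-1-like, 4 in shn, 3 in crp, 5 in Tlk, 4 in dnc, 6 in CG1677 and 7 in lncRNA:CR44357. Replicate 2 gave 10 in kirre, 8 in CHES-1-like, 6 in shn, 3 in crp, 4 in Tlk, 5 in dnc, 11 in CG1677 and 12 in lncRNA:CR44357. The 2 overlapping genes thus differed most between replicates, and crp fell short of 4 in both. Individually, 31 of the 44 peaks (70.5%) were among the strongest 2174 of both replicates, against 66.2% of all optimal peaks.

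**Figure D5:**
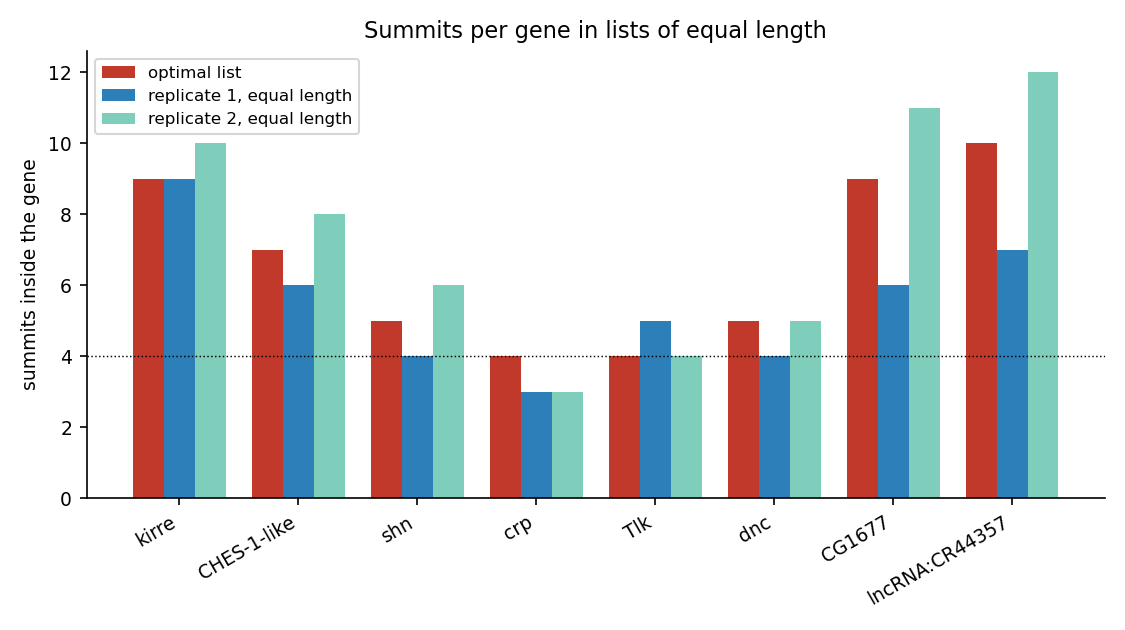
Number of summits inside each gene in the optimal list and in each replicate's own list cut to the same length of 2174, with 4 summits dotted. Counts run from 3 in crp to 12 in lncRNA:CR44357, and CG1677 has 6 in replicate 1 and 11 in replicate 2.

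By chromosome, 6 of the 8 genes are on X, between positions 2740384 and 7709385, and 35 of the 44 summits (79.5%) lay there, against 18.9% of summits in other long genes and 16.5% of all. The share of the 44 follows from which genes were listed, with CG1677 and lncRNA:CR44357 at the same locus, and is only a description. Of all 27 genes that met the count 9 are on X, and of the 19 not listed 3 are, against 15.5% of all annotated genes.

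Short motifs were searched on both strands within 100 bp of each summit (201 bp in all). The GAGA repeat GAGAGA, a site of GAGA factor, matched 4 of 44 (9.09%, 2.53 to 21.7), against 16.1% in other long genes, 12.8% of all optimal and 9.0% of all pooled summits. These 4 lay in kirre, crp (2 of its summits) and Tlk, and the crp summit at 18.1 kb held 7 overlapping matches. The CA repeat CACACACA matched 4.55% of the 44 and 4.46% of all optimal summits, in Tlk and at the Dok summit. CAGGTA, the core of the Zelda site, matched 2.27% against 4.37%, by 1 summit in CHES-1-like. The E-box CAGCTG matched 2 of 44 against 218 of 2174, in crp and at the Dok summit. TATCGATA, the core of the DNA replication-related element, was found at 0 of 44, which allows up to 6.82%, against 3.54% of all optimal and 0.43% in other long genes. The motifs therefore gave no feature held by most of the 44.

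Genes of the pathways and families in which the members act were looked at in lists chosen with these peaks already described, so the counts are descriptions. Over all 13945 protein-coding genes, 990 (7.10%) had an optimal summit inside and 1460 (10.5%) had one within 500 bp of a start site. Of 18 genes of the Dpp pathway 9 had a summit inside, shn with its 5 among them, and 2 had one at a start site. Besides shn, chosen by its summits, genes with summits inside included the ligand dpp (1, 122.9), the receptor wit (1, 159.0) and the Smad Mad (1, 264.5). The others were the inhibitory Smad Dad with 2 (strongest 151.2), and sog (134.2), cv-2 (3 summits, strongest 190.7), dally (105.2) and magu (2, strongest 271.1) outside the cell. The ligands gbb and scw, the receptors tkv, sax and put, the Smad Med, and tsg and tld had no optimal summit inside or at a start site. The 18 genes of the list had a median length of 9.37 kb, against 2.17 kb for protein-coding genes, and the part of length in the count was not tested. The gene for the repressor brk, in the same list, had none inside its own body but the one 784 bp upstream that lies in CG1677.

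In the myoblast fusion list, 3 of 16 genes had a summit inside, kirre and the intracellular adaptors mbc (strongest inside 126.5) and rols (90.5), and 4 had one at a start site: mbc (194.7) and the actin regulators WASp (103.2), Hem (143.6) and Arp3 (129.4). Of 21 cAMP genes, 4 had one inside, namely dnc, the adenylyl cyclase Ac13E (97.7), the phosphodiesterase Pde1c (371.4) and the transcription factor CrebB (93.7). At start sites there were 4, namely dnc (307.7), Ac13E (143.1), the cyclase Ac78C (98.7) and the phosphodiesterase Pde6 (148.6). Among 16 forkhead genes, CHES-1-like, jumu (88.8) and FoxK (148.7) had one inside, and CHES-1-like, FoxK and fkh (261.3) had one at a start site. Apart from CHES-1-like none of them held more than 1.

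Of 11 basic helix-loop-helix leucine zipper genes and related HLH genes, 4 had a summit inside, crp, Mnt (3 summits, strongest 100.2), Myc (91.6) and emc (119.5), and 3 had one at a start site, crp (166.6), emc and bigmax (106.4). Among 8 chromatin assembly genes Tlk alone had one inside, and yem, a partner of the histone chaperone Hira, had one at its start site (120.9), while asf1, whose product Tlk phosphorylates, had neither.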

How the data were processed

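Anti-GFP ChIP-seq of NC2alpha-eGFP embryos was analysed from the deposited peak lists of 2 biological replicates. Per the file headers and labels, the authors deposited lists of peaks and background per replicate and for pooled replicates, made against a control alignment and meant for the irreproducible discovery rate (IDR) step, and an optimal list thresholded by IDR. For the peak caller, the aligner and the IDR cutoff, names and values are not given in the sources used. The signal per peak, the -log10 q value and the summit offset (other) were used as deposited by the authors, and the lists hold no read counts, so depth is unknown.

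Only dm6 lists were used, with Release 6 sequence and Ensembl release 115, counted from 1. The peak lists are labelled dm6, and every peak and gene ended within its chromosome, a check that another build could also pass. A summit (start plus offset) was counted inside every gene body that holds it, transposable elements left out. A replicate value is that of the strongest peak overlapping by at least 1 base. Lists compared at equal length hold the strongest 2174 peaks. Distances run to the nearest annotated start site, negative upstream. Intervals are exact Clopper-Pearson at 95%, and a count of 0 is read as at most 3 counts. Code was tested on simulated data. Python 3.11.15, numpy 2.4.6, pandas 2.3.3, scipy 1.17.1 and matplotlib 3.10.9 were used.

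No test between groups was made, since there was 1 group and the genes were chosen on the measure described. The 8 genes and the gene lists were chosen with earlier results of these data known. Genes named are the 8, all others with 4 or more summits, the 5 of highest summed signal with 3, genes nested in or near a member summit, and list genes with a summit inside or at a start site. Dpp list genes with neither are named too, as is asf1. In the forkhead list 2 names pointed to the same gene, which was counted once. Alternatives changed the list, the replicate, the overlap rule, the gene limits, merging of close summits, the distance to a start site and the motif window.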

Additional observations from a re-analysis of the deposited data

How the results depend on the processing

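No paired analysis was possible because only 1 group was sampled. The strongest 1087 optimal peaks left 20 summits in the 8 genes, a median of 0.0332 per kb and of 161.85 in signal, 7 genes in all with 4 or more and 3 of the 8. The strongest 4348 pooled peaks gave 69 summits, 0.102 per kb, a median signal of 97.36 and 132 genes with 4 or more, all 8 among them. Each replicate's own strongest 2174 peaks gave a median signal of 52.67 to 69.36, on the replicate scale, with 38 to 48 summits. Within 200 bp of a start site lay 6.82% of the 44. CACACACA matched 0.0% within 50 bp and CAGCTG 18.2% within 150 bp. Apart from the single-replicate signals, which are on another scale, these alternatives changed the length of the list or window by construction. Merging summits closer than 500 bp left 43, extending genes by 500 bp gave 45, and the share in introns stayed between 90.0% and 95.5% under every list tried. Counts per gene under each setting, the number of the 8 genes with 4 or more, and replicate values by the nearest summit (90.9% within 2-fold) were added after the data had been seen. Depth limits cannot be given, because the lists hold no read counts.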
